A study of Mus musculus with 12 samples.

Results

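The genes described here carry glucose into the cell, break it down to pyruvate, and pass pyruvate either to lactate or to the mitochondrion. They were chosen by name from a list of 34 symbols covering glucose uptake, glycolysis, lactate export and pyruvate dehydrogenase, and 33 of them are among the 26219 genes of the table. The pyruvate kinase gene is in the table under its older symbol, Pkm2, and was counted once. The choice went by gene name with no cut-off on the values, but it was made with earlier results of these data known. Of the 33 genes, 30 reached 5 RPM (reads scaled to a common library total) in 2 or more libraries and were tested, and Eno2, Pdk4 and Pfkfb4 did not.

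Glycolysis opens with an energy-consuming phase, in which hexokinase and phosphofructokinase phosphorylate the sugar and aldolase cleaves it, and closes with a payoff phase that ends at pyruvate kinase. Lactate dehydrogenase turns pyruvate into lactate, which monocarboxylate transporters carry out of the cell, while pyruvate dehydrogenase feeds it to the citric acid cycle unless a pyruvate dehydrogenase kinase (PDK) switches the enzyme off. Many of these steps are served by isoenzymes from separate genes, and several of the genes are known targets of the oxygen-sensing factor HIF1.

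Transcripts were measured in 12 mouse libraries from 6 lines, with 2 biological replicates of the culture per line. Germline stem cells (GSCs), the cultured form of spermatogonial stem cells, make up the lines GSC_1 and GSC_2, each grown from its own testes of postnatal day 7. The other 4 lines, GSCLC_1 to GSCLC_4, are GSC-like cells (GSCLCs) that came out of reconstituted testes. In condition 1, which gave GSCLC_1 and GSCLC_4, these testes spent 3 weeks at 34°C. In condition 2, which gave GSCLC_2 and GSCLC_3, they spent 2 weeks at 37°C followed by 1 week at 34°C. All 6 lines carry the AcrAct_EGFP reporter on a C57BL/6 x 129/SvJcl background. All grew in one StemPro-34 medium with GDNF, bFGF, LIF and EGF, which also supplies 30 µg/ml pyruvic acid. The kind of line goes with the source of the testis, so the effects of kind and source cannot be told apart. No oxygen level of the cultures was given in the sources used here.

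SC3-seq reads the 3′ ends of amplified mRNA, here from 1 ng of total RNA, so an RPM counts transcript ends and is not divided by gene length. The steps between low RPM values imply 3031705 to 4644184 counted reads per library, and 3 reads correspond to 0.646 to 0.99 RPM. Germ cell markers (12 of 12 measured) summed to 3773 to 4515 RPM in every library. Fibroblast and feeder markers (10 of 10 reaching 1 RPM) summed to 142 to 467 RPM in GSC and 85.7 to 311 RPM in GSCLC libraries. Leydig and peritubular markers (7 of 8 reaching 1 RPM, Cyp17a1 at 0 throughout) summed to 36.7 to 136 and 16.0 to 53.0 RPM. Sertoli markers stayed at or below 36.1 RPM with Amh at 0, and spermatid markers at or below 4.59 RPM. In bulk RNA, fewer cells of a type and less RNA per cell cannot be told apart.

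Together the 33 genes took 0.51% to 0.743% of all RPM in a library. The most abundant was Gapdh, which oxidises the triose phosphate, at 1503 ± 404 RPM in GSC lines (mean ± SD, n = 2 lines) and 1539 ± 220.04 RPM in GSCLC lines (n = 4 lines). Pyruvate kinase (Pkm2) followed at 877 ± 123 and 884 ± 110.4 RPM, and the phosphoglycerate mutase Pgam1 at 685 ± 83.2 and 644 ± 54.3 RPM. All 3 differed between the kinds of line by less than the spread of the lines. The M1 and M2 forms of pyruvate kinase share their 3′ end and were not told apart. Some levels are uncertain because other genes carry the same sequence. Of the 50-base windows at the 3′ end of the transcripts, 86.9% for Eno1 and 78.3% for Gapdh also occur in other annotated genes. For Gpi1, Pkm2, Ldha, Tpi1, Aldoa and Ldhb this share was 12.7% to 22.8%. Pfkp and Pdha1 overlap a gene on the opposite strand at their 3′ ends, and Gpi1 overlaps one within its span. The sources used here do not state strand use in counting, so for these 3 genes reads of the overlapping gene cannot be told apart.

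The first comparison asked how GSCLC lines differ from GSC lines. One member of the 30 tested passed the threshold, an adjusted p under 0.05 from limma over all 11788 tested genes. Over all genes 3.02% passed, 1.21% higher and 1.81% lower in GSCLC lines. The median log2 change of the members was 0.066, beside -0.006 over all tested genes, with 17 members positive and 13 negative. At an unadjusted p under 0.05, 2 members were higher and 2 lower, beside 7.99% and 8.93% of all genes.

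The gene that passed was Aldoc, which encodes the aldolase C isoenzyme, known mainly from brain. Its level was 72.0 and 73.0 RPM in the GSC_1 libraries and 90.6 and 97.7 RPM in those of GSC_2. In GSCLC libraries it was 53.4 and 38.5 RPM (GSCLC_1), 40.1 and 40.4 RPM (GSCLC_2), 40.4 and 56.1 RPM (GSCLC_3) and 38.3 and 56.1 RPM (GSCLC_4). Every GSCLC library lay below every GSC library. The line means were 83.3 ± 15.3 RPM (GSC) and 45.4 ± 3.55 RPM (GSCLC), and on the scale of log2(RPM + 1) Aldoc fell by 0.87 ± 0.16 (SE, limma, adjusted p = 0.0157). Of the Leydig markers, Cyp11a1 was at 36.2 and 3.23 RPM in GSC_1 and 60.1 and 2.30 RPM in GSC_2. It was at most 0.751 RPM in GSCLC libraries, and Hsd3b1 was at 2.80 to 36.7 and 0 RPM. Star overlapped, at 3.91 to 11.3 RPM in GSC and 0.99 to 5.39 RPM in GSCLC libraries. Insl3 went the other way, at 0.738 to 1.94 and 0 to 6.77 RPM. Fibroblast and feeder markers summed to 220 and 142 RPM in GSC_1 and 416 and 467 RPM in GSC_2. In GSCLC libraries they summed to 85.7 to 311 RPM, below GSC_2 but overlapping GSC_1. The part of either marker list in the result was not tested. The call was lost when a GSC line was left out (adjusted p = 0.0762 without GSC_1 and 0.316 without GSC_2, log2 -1.05 and -0.68) or when one replicate per line was used (0.0662 and 0.0849).

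**Figure D1:**
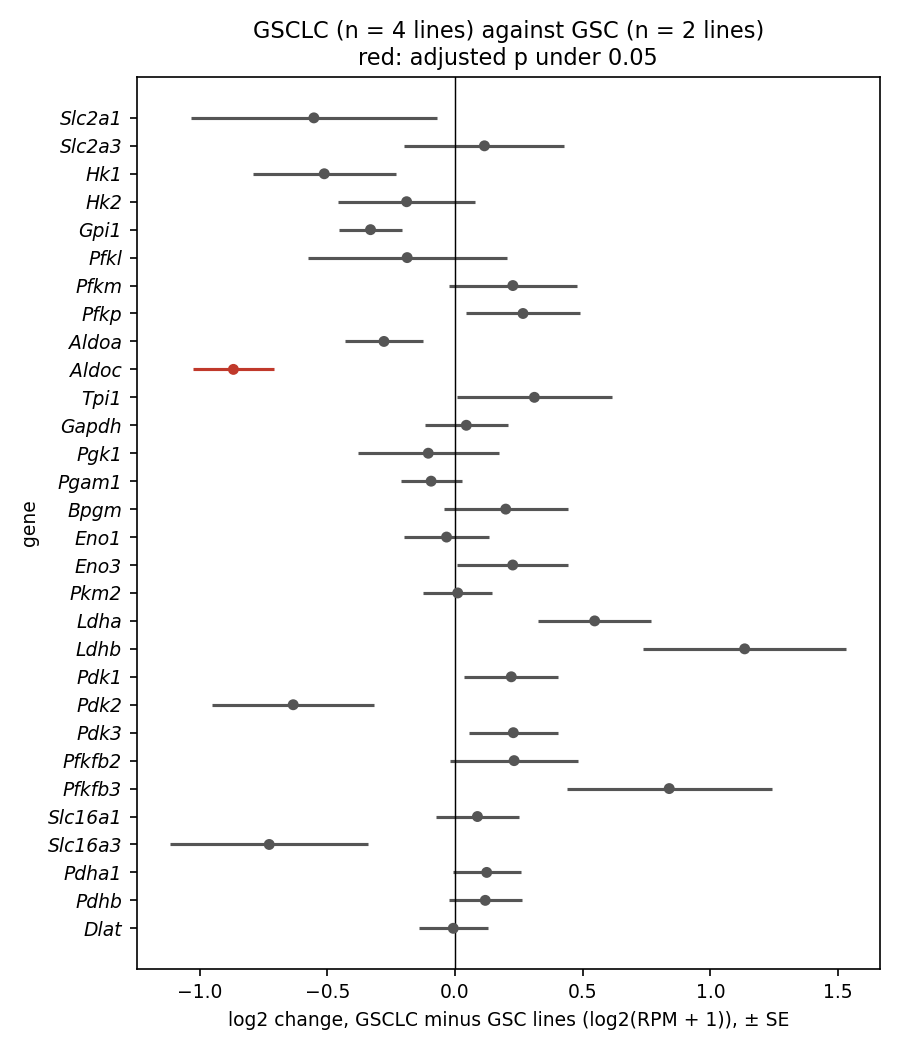
Log2 change of each tested gene in GSCLC lines (n = 4) against GSC lines (n = 2), on the scale of log2(RPM + 1), with bars of ± 1 SE from limma, in the order uptake, glycolysis, pyruvate use. Aldoc, in red at -0.87, is the only one with an adjusted p under 0.05, and Ldhb lies farthest to the right at 1.13 with a wide bar.

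At the entry of the pathway no gene passed. Slc2a3, the high-affinity neuronal-type glucose transporter, averaged 153 ± 83.1 RPM (GSC) and 161 ± 50.8 RPM (GSCLC), and Slc2a1 8.13 ± 7.14 and 4.82 ± 1.74 RPM. Of the hexokinases, Hk1 had a log2 difference of -0.51 ± 0.28 (adjusted p = 0.39) and Hk2 one of -0.19 ± 0.27 (adjusted p = 0.77). Gpi1, which converts glucose phosphate to fructose phosphate, averaged 512 ± 91.3 RPM across GSC lines, against 406 ± 21.6 RPM for GSCLC lines (log2 -0.33, adjusted p = 0.195). For Gpi1, Aldoc, Eno3 and Ldhb the line means in RPM did not overlap between the kinds, 4 of 30 members, where 28.6% of all tested genes showed the same. Of these, Ldhb met the 5 RPM filter only through GSCLC libraries.

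Among the phosphofructokinases, Pfkp differed by 0.27 ± 0.22, Pfkm by 0.23 ± 0.25 and Pfkl by -0.19 ± 0.39 on the log2 scale. The genes of PFKFB, the enzyme that makes and degrades the activator of phosphofructokinase, spread widely within the kinds. Pfkfb3 averaged 9.95 ± 8.18 RPM across GSC lines, against 17.8 ± 3.64 RPM for GSCLC lines (log2 0.84, adjusted p = 0.315). Pfkfb2 averaged 8.30 ± 0.526 and 9.43 ± 0.894 RPM, and Pfkfb4 lay at 0.539 to 4.76 RPM in all libraries.

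Between aldolase and the payoff phase, the triose phosphate isomerase Tpi1 had a log2 difference of 0.31 ± 0.30. In the payoff phase, the phosphoglycerate kinase Pgk1 and the enolase Eno1 had log2 differences of -0.10 ± 0.28 and -0.033 ± 0.17. The muscle enolase Eno3 averaged 11.7 ± 0.588 RPM (GSC) and 14.0 ± 0.92 RPM (GSCLC), and the neuronal enolase Eno2 stayed at or below 3.26 RPM. Bpgm, which diverts a payoff intermediate to bisphosphoglycerate, averaged 20.0 ± 4.68 and 23.3 ± 4.89 RPM. None of these genes passed the threshold.

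At the lactate branch, Ldha encodes the subunit of lactate dehydrogenase that dominates in lactate-producing tissue, and Ldhb the heart-type subunit. Ldha stood at 161 and 128 RPM in GSC_1, 259.7 and 269 RPM in GSC_2, and 165 to 397 RPM in GSCLC libraries with a median of 300.7 RPM. The groups of libraries overlapped, since GSCLC_4 replicate 1 and GSCLC_1 replicate 2 lay below both GSC_2 libraries, and the log2 difference of 0.55 ± 0.22 had an adjusted p of 0.231. Ldhb lay at 1.23 to 4.09 RPM in GSC and 3.31 to 9.91 RPM in GSCLC libraries. At these low levels its log2 difference was 1.13 ± 0.40 (limma, adjusted p = 0.167). No GSC library reached the 5 RPM of the filter, so Ldhb was tested only through GSCLC libraries, where it was higher. Of the monocarboxylate transporters, Slc16a1 averaged 127 ± 8.55 and 137 ± 27.02 RPM and the lactate exporter Slc16a3 30.3 ± 19.8 and 17.98 ± 6.89 RPM.

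At the mitochondrial branch, the pyruvate dehydrogenase subunit genes Pdha1, Pdhb and Dlat did not pass, and their levels in the kinds of line were close. Their line means were 149.9 ± 14.0, 171 ± 8.35 and 121 ± 8.87 RPM in GSC lines and 163 ± 16.2, 187 ± 25.4 and 119.9 ± 12.2 RPM in GSCLC lines. Of the kinases, Pdk1 averaged 130.2 ± 34.6 and 151 ± 26.5 RPM, Pdk3 169 ± 13.05 and 201 ± 44.6 RPM, and Pdk2 12.2 ± 0.492 and 8.0 ± 3.2 RPM (log2 -0.63, adjusted p = 0.342). Pdk4, the kinase known for induction by fasting, stayed at or below 0.565 RPM, under the 3-read floor.

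Condition 2 and condition 1 were compared as 2 lines against 2. No member passed, and neither did any of the 11788 genes (0%), with a smallest adjusted p of 0.933 in limma. At an unadjusted p under 0.05, 0 of 30 members passed, beside 153 genes (1.3%) higher and 399 (3.38%) lower in condition 2. The largest member difference was that of Ldhb, with line means averaging 8.71 RPM under condition 2 and 4.41 RPM under condition 1.

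The 4 GSCLC lines did differ among themselves in 4 of the 30 members, by a moderated F-test in limma on single libraries, where 9.14% of all genes passed. Such p-values measure these lines against the spread of their culture replicates and do not extend to other lines. Slc2a3 was at 144 and 89.1 RPM in GSCLC_1, 196 and 187 RPM in GSCLC_2, 121 and 116 RPM in GSCLC_3, and 192 and 239.8 RPM in GSCLC_4 (adjusted p = 0.00335). Pfkp, the platelet-type phosphofructokinase, was at 126 and 90.1, 165 and 138, 86.8 and 81.9, and 162 and 157 RPM in the same order (adjusted p = 0.00487). For both genes GSCLC_2 and GSCLC_4, one line of each condition, held the higher levels, and no library of GSCLC_1 or GSCLC_3 reached them.

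Hk2, the inducible hexokinase, stood at 34.2 and 29.8 RPM in GSCLC_1, 63.7 and 53.7 RPM in GSCLC_2, 22.6 and 28.8 RPM in GSCLC_3, and 44.3 and 42.6 RPM in GSCLC_4 (adjusted p = 0.0283). Pdk3 was highest in GSCLC_4, at 290.3 and 233 RPM, against 149 to 203 RPM in the other GSCLC libraries (adjusted p = 0.0173). Line means of Hk2 ranked GSCLC_2, GSCLC_4, GSCLC_1 and GSCLC_3, and the nearest libraries of GSCLC_1 and GSCLC_3 lay side by side.

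Each GSCLC line was also set against the mean of the GSC lines, in 4 comparisons that share the GSC libraries. In GSCLC_1, 2 of 30 members passed, where 6.94% of all genes did: Slc16a1 rose by 0.46 ± 0.14 (adjusted p = 0.0489), and Aldoc fell. Slc16a1 was at 201 and 150.3 RPM there, above the 106 to 136 RPM of all other libraries. In GSCLC_2, 5 members passed (11.7% of all genes), with Ldha, Ldhb and Pfkp higher and Aldoc and Slc16a3 lower. Ldhb met the 5 RPM filter only through GSCLC libraries, those of GSCLC_2 and GSCLC_3 among them. With a filter of 20 RPM, Ldha missed the threshold there (limma, adjusted p = 0.0529) and Ldhb was not tested. Slc16a3 was at 8.27 and 12.5 RPM there, below the 14.0 to 52.9 RPM of the GSC libraries.

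In GSCLC_3, 7 members passed (14.3% of all genes): Ldha, Ldhb and Pdk1 were higher, and Aldoc, Hk1, Hk2 and Pdk2 lower. With median-of-ratios scaling Pdk2 missed the threshold (limma, adjusted p = 0.0514). Hk1, the housekeeping hexokinase, fell by 1.17 ± 0.26 (adjusted p = 0.00561), with 9.89 and 22.9 RPM against 30.0 to 51.2 RPM in GSC libraries. Pdk1 was at 176 and 201 RPM, above the 102 to 167 RPM of the GSC libraries, and rose by 0.56 ± 0.15 (adjusted p = 0.0147). In GSCLC_4, 4 members passed (16% of all genes), with Pdk3, Pfkp and Slc2a3 higher and Aldoc lower. Slc2a3, at 192 and 239.8 RPM there, was above GSC_1 (97.1 and 91.5 RPM) but not apart from GSC_2 (209 and 214 RPM). Pdk2, at 4.24 and 7.55 RPM in GSCLC_3, was at 12.3 and 13.2 RPM in GSCLC_4, inside the 11.4 to 13.8 RPM of the GSC libraries. In limma, Aldoc passed in each of the 4 comparisons, with changes of -0.78 to -1.02 and adjusted p-values of 0.00134 to 0.00882.

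**Figure D2:**
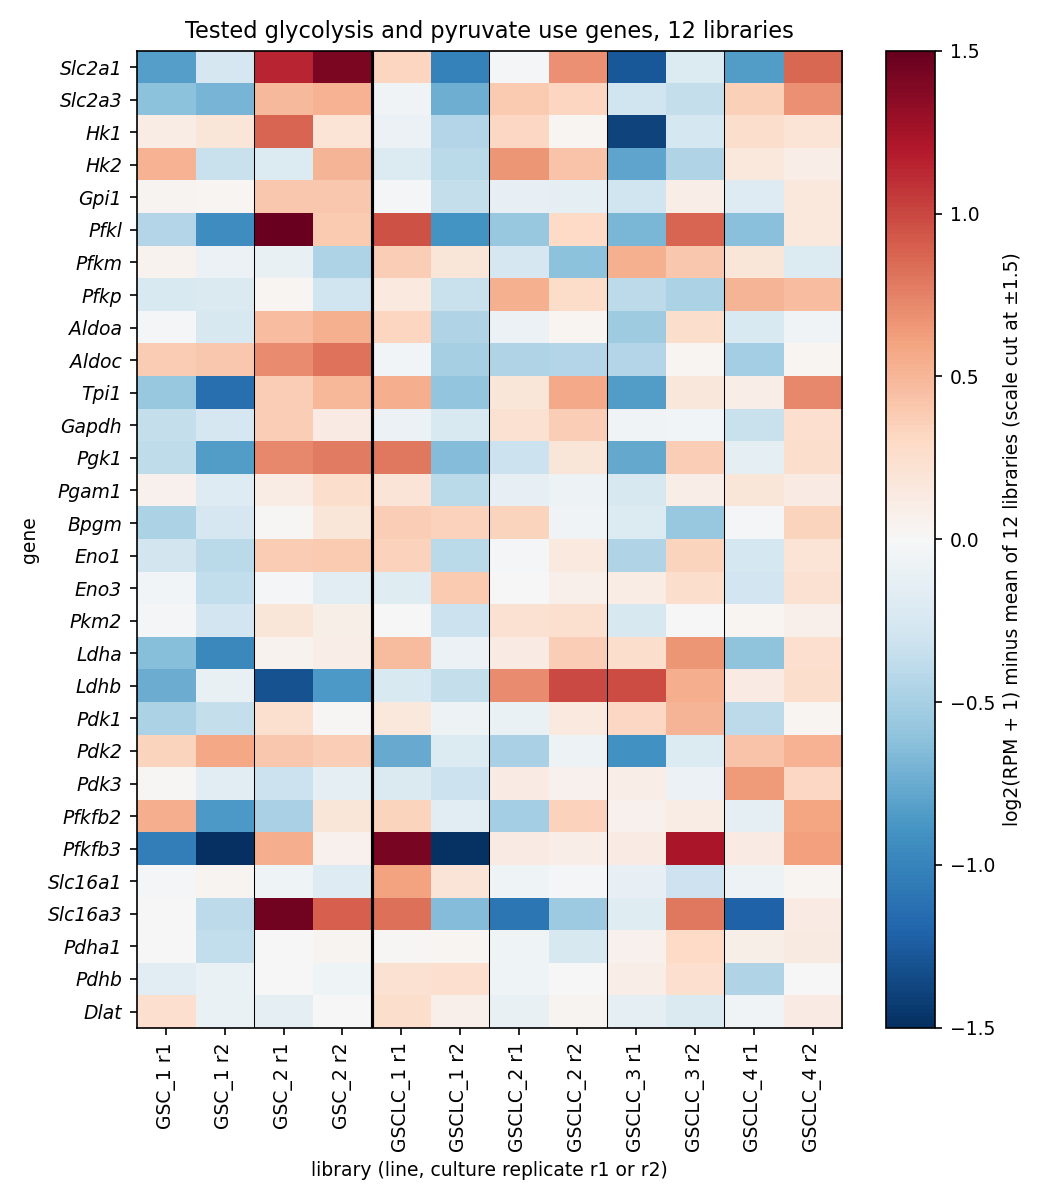
Colour map of the 30 tested genes (rows, in pathway order) in the 12 libraries (columns, r1 and r2 for the culture replicates), as log2(RPM + 1) minus the mean of the gene over the libraries. The thick line parts GSC from GSCLC libraries. Aldoc is the one row in which every GSC library lies above every GSCLC library. By contrast Pgk1, Tpi1, Pfkl, Pfkfb3 and Slc16a3 change between replicates of one line, as in GSCLC_1 and GSCLC_3.

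Several members sit together on chromosome 6 (GRCm38), and the genes around them were not level across lines. Beyond 80 Mb, a boundary set after the values were seen, the median log2 difference of 310 non-member genes from the GSC mean was 0.47 in GSCLC_2 and 0.55 in GSCLC_4. It was -0.0038 in GSCLC_1 and -0.10 in GSCLC_3, and on the 80 Mb before that boundary it was between -0.10 and 0.17 in all 4 lines. Hk2 (from 82725025 on chromosome 6), Slc2a3 (122727809), Eno2 (124760053), Tpi1 (124810586), Gapdh (125161852) and Ldhb (142490249) lie beyond the boundary.

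Of these, Slc2a3 differed from the GSC mean by 0.43 in GSCLC_2 and 0.60 in GSCLC_4, and Tpi1 by 0.58 and 0.61, values near the median of their neighbours. Hk2 differed by 0.42 in GSCLC_2 and by -0.00094 in GSCLC_4, and Gapdh by 0.33 and -0.014. Ldhb differed by 1.60 and 0.95, and also by 1.52 in GSCLC_3, where the neighbours were level. The part of the regional difference in the values of these genes was not tested. Pfkp and Pdk3, which also stood high in GSCLC_4, are on chromosomes 13 and X, where the median of the other tested genes in that line was 0.10 and 0.21, beside 0.065 over all tested genes.

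**Figure D3:**
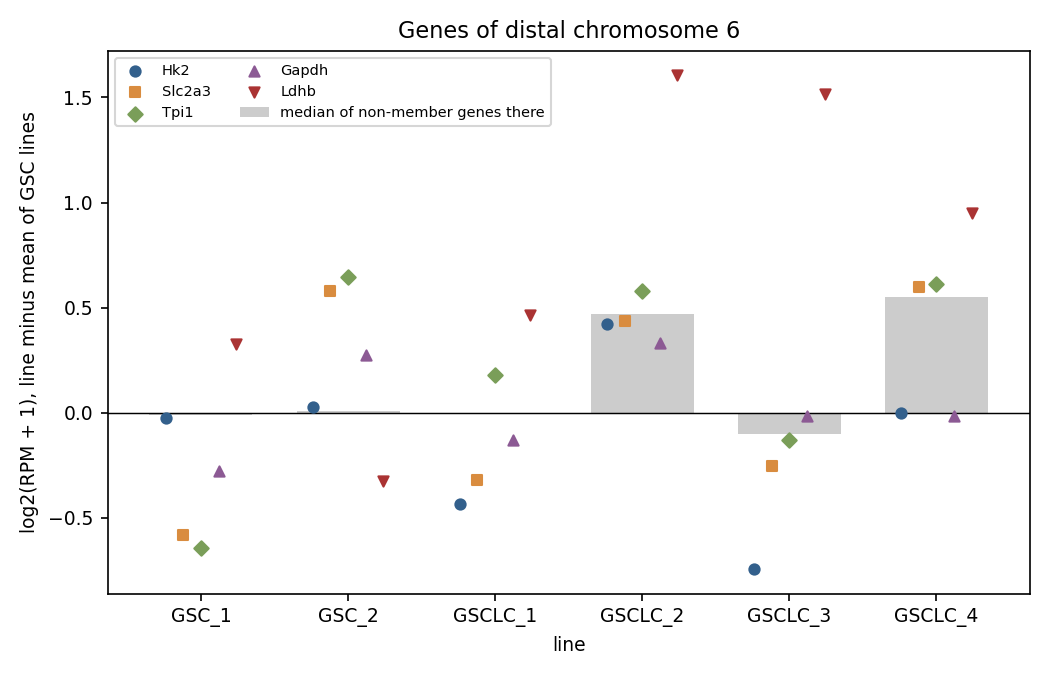
Log2(RPM + 1) of 5 members on chromosome 6 beyond 80 Mb, as the mean of each line minus the mean of the GSC lines (points), with the median of the 310 other tested genes there as a grey bar. The bars stand at 0.47 in GSCLC_2 and 0.55 in GSCLC_4 and near 0 elsewhere, and Slc2a3 and Tpi1 lie close to them, while in GSC_1 and GSC_2 the same genes sit apart from a bar at 0.

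Several members differed more within the kinds of line than between them. Between the GSC lines, 24 of 30 members were higher in GSC_2, with a median log2 difference of 0.37 beside -0.0038 for all tested genes. One member passed after adjustment, Slc2a3, and 6 of all genes did (0.0509%). Slc2a3 was at 97.1 and 91.5 RPM in GSC_1 and 209 and 214 RPM in GSC_2, a log2 difference of 1.16 ± 0.18 (limma, adjusted p = 0.0186). At an unadjusted p under 0.05, 14 of 30 members were higher and 0 lower in GSC_2, beside 4.15% and 2.59% of all genes. By size, 10 of 30 members were over 1.5-fold higher in GSC_2, beside 5.45% of all genes, with folds taken from RPM + 1. One member, Ldhb, was over 1.5-fold higher in GSC_1, beside 3.4% of all genes. The 10 were Slc2a1, Slc2a3, Pfkl, Aldoa, Tpi1, Pgk1, Eno1, Ldha, Pfkfb3 and Slc16a3. Fibroblast and feeder markers were also higher in GSC_2, at 416 and 467 RPM against 220 and 142 RPM in GSC_1, with 9 of 9 tested markers positive. Their part in the difference was not tested.

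Culture replicates of one line also differed. In GSCLC_1, 10 of 30 members were over 1.5-fold higher in replicate 1 and 0 in replicate 2, beside 5.35% and 6.76% of all genes. In GSCLC_3, 10 were over 1.5-fold higher in replicate 2 and 0 in replicate 1, beside 7.49% and 11.1%. In GSCLC_4 the counts were 6 and 0, again with replicate 2 higher, beside 9.37% and 7.65%, and in GSCLC_2 they were 3 and 0, beside 5.56% and 7.33%. In GSC_1, 3 members were higher in replicate 1 and 1 in replicate 2, beside 10.9% and 6.66%, and in GSC_2 they were 2 and 2, beside 5.67% and 6.78%. With 1 library on each side these are sizes with no test. The comparisons of GSC_2 with GSC_1, of the GSCLC_1 replicates and of the GSCLC_3 replicates share no library, and 8 members were over 1.5-fold apart in all 3: Slc2a1, Pfkl, Aldoa, Tpi1, Pgk1, Eno1, Pfkfb3 and Slc16a3. These 3 comparisons are the ones with the most members past this fold in one direction, 10 each. The share of all genes that were apart in all 3 was not counted.

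Pgk1, the first ATP-making enzyme of the payoff phase, was at 179.8 and 65.2 RPM in the replicates of GSCLC_1 and at 60.5 and 133 RPM in those of GSCLC_3. It was at 79.2 and 57.3 RPM in GSC_1 and 171 and 178 RPM in GSC_2. The fold of RPM + 1 was 2.73 between the replicates of GSCLC_1 and 2.57 between the GSC lines. Tpi1 was at 120.1 and 54.1 RPM in GSCLC_1 and 45.5 and 92.5 RPM in GSCLC_3, beside 55.1 and 37.0 RPM in GSC_1 and 107 and 117 RPM in GSC_2. Pfkl, the liver-type phosphofructokinase, went from 16.3 to 3.78 RPM between the replicates of GSCLC_1 and from 4.52 to 15.4 RPM between those of GSCLC_3. In both lines the higher replicate of these genes was that of Pgk1.

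Regulatory and export genes swung in these libraries too. Pfkfb3 was at 34.8 and 3.78 RPM in GSCLC_1 and 13.6 and 30.2 RPM in GSCLC_3. Slc16a3 was at 34.0 and 11.6 RPM in GSCLC_1, 16.4 and 33.2 RPM in GSCLC_3, and 7.51 and 20.5 RPM in GSCLC_4. Aldoa, the main aldolase, was at 558 and 328 RPM in GSCLC_1 and 308 and 538 RPM in GSCLC_3, and Eno1 at 469.9 and 280.4 and at 271 and 468 RPM. By contrast Pdhb was at 211 and 214 RPM in GSCLC_1 and 193 and 214 RPM in GSCLC_3, and Pdk3 at 160.4 and 149 and at 200.4 and 176 RPM. Over the 12 libraries, Pearson's r with Pgk1 on the log2 scale was 0.96 for Eno1, 0.91 for Pfkl and Aldoa, 0.87 for Tpi1, 0.17 for Pdhb and -0.35 for Ldhb. This is a description of 12 points, in which the libraries of a line share their source.

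Fibroblast and feeder markers summed to 130.4 and 177 RPM in the replicates of GSCLC_1, lower where the glycolytic genes were higher, and to 133 and 209 RPM in those of GSCLC_3, higher where they were higher. The implied reads of these 4 libraries were 3504814, 4230229, 3537311 and 3709926.

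**Figure D4:**
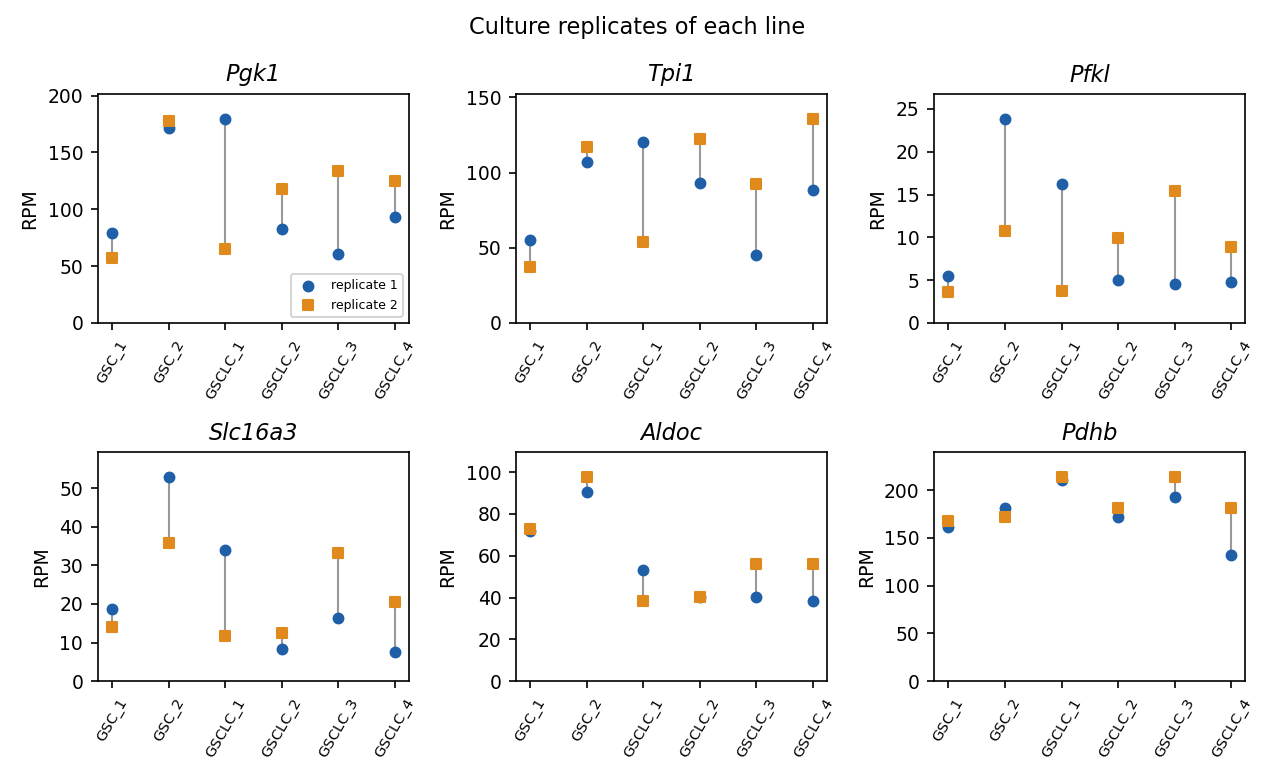
RPM of 6 genes in the 12 libraries, with replicate 1 as circles and replicate 2 as squares, joined within a line. Pgk1, Tpi1, Pfkl and Slc16a3 part widely in GSCLC_1 (replicate 1 higher) and GSCLC_3 (replicate 2 higher), while Pdhb stays between 132 and 214 RPM. Pgk1, Tpi1 and Pfkl are low in GSC_1. Aldoc is above 70 RPM in all 4 GSC libraries and below 57 RPM in all 8 GSCLC libraries.

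A list of 22 oxygen-sensing genes and HIF targets outside the pathway was measured beside the members, 20 of them tested. In GSCLC_1, 10 of the 20 were over 1.5-fold higher in replicate 1 and 1 in replicate 2, beside 5.35% and 6.76% of all genes. In GSCLC_3, 6 were over 1.5-fold higher in replicate 2 and 0 in replicate 1, beside 7.49% and 11.1%. In GSCLC_4 the counts were 4 and 0, beside 9.37% and 7.65%. In GSC_1, 6 were over 1.5-fold higher in replicate 1 and 1 in replicate 2, beside 10.9% and 6.66%. Of the 30 members, 3 and 1 were. The counts for replicate 2 and replicate 1 were 0 and 0 in GSC_2, beside 6.78% and 5.67%. They were 1 and 0 in GSCLC_2, beside 5.56% and 7.33%. Ankrd37, a small HIF target, was at 72.5 and 27.4 RPM in GSCLC_1 and 24.03 and 75.7 RPM in GSCLC_3, beside 35.2 and 16.1 RPM in GSC_1 and 52.9 and 71.2 RPM in GSC_2. P4ha1, a collagen prolyl hydroxylase, was at 103.6 and 52.7 RPM and at 38.2 and 94.3 RPM in the same GSCLC lines. For both genes the higher replicate was that of Pgk1. Between the GSC lines the list's median log2 difference was 0.59, with GSC_2 higher. At an unadjusted p under 0.05 in limma, 10 of 20 were higher in GSC_2, beside 4.15% of all genes. After adjustment 0 passed, beside 0.0509% of all genes. Hif1a itself, an oxygen-regulated subunit, was at 39.9 to 63.2 RPM in all libraries. Epas1, another such subunit on the list, was at 135 and 123 RPM in GSCLC_2 and 7.63 and 7.55 RPM in GSCLC_3. In GSC libraries it was at 11.6 to 35.7 RPM. Epas1 differed among the GSCLC lines (limma F-test, adjusted p = 1.89e-06). It was 1 of the 20 tested list genes to do so, where 9.14% of all genes passed. Of 17 citric acid cycle genes, 0 were over 1.5-fold apart between the replicates of GSCLC_1 and 2 between those of GSCLC_3, both higher in replicate 1. Of all genes, 5.35% and 6.76% were this much higher in replicate 1 and replicate 2 of GSCLC_1, and 11.1% in replicate 1 of GSCLC_3.

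The promoters of all matched members were searched for ACGTG and GCGTG, the core letters of the hypoxia response element, on both strands (CACGT and CACGC on the printed strand), in the 250 bases before each RefSeq start (GRCm38.p6). ACGTG overlaps CACGTG, the E-box bound by MYC and MAX. At least one of the cores was found in 37 of 48 promoters of the 32 matched members (77.1%), where 38.6% of all 32851 promoters held one. Members with several starts count more than once here, and some of their windows overlap. By gene, 27 of 32 members held a core, beside 41.5% of all genes. The list was chosen by name and holds known HIF1 targets, and the promoters were not matched for base composition. This is a description with no test. ACGTG alone was in 39.6% of the member promoters and 16.6% of all, and CACGTG in 12.5% and 6.02%. Cores were also found in the windows of genes that were close between the same replicates, 2 in that of Pdhb and 4 in that of Pdk3. Shown here are 4 of the genes with wide swings between replicates, 3 that hold a core and Tpi1, which holds none in this window. Capitals mark the cores. They are Pgk1 (chrX:106186850-106187099, plus strand), Slc16a3 (chr11:120948817-120949066, plus strand), Pfkl (chr10:78009808-78010057, minus strand) and Tpi1 (chr6:124814159-124814408, minus strand).
Pgk1: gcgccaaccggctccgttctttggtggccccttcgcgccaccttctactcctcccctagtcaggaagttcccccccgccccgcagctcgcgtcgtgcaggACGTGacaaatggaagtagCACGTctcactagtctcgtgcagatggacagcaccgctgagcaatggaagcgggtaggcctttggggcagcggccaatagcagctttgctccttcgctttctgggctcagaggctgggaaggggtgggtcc
Slc16a3: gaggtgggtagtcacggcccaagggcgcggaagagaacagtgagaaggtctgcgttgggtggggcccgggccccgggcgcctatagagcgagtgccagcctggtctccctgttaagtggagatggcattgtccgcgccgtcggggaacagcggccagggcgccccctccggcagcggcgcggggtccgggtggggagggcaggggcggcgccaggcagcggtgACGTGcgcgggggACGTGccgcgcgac
Pfkl: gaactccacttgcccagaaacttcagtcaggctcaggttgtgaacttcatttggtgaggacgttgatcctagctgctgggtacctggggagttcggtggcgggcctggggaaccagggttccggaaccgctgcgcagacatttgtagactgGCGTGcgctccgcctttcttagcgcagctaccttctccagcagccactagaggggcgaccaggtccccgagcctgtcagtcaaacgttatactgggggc
Tpi1: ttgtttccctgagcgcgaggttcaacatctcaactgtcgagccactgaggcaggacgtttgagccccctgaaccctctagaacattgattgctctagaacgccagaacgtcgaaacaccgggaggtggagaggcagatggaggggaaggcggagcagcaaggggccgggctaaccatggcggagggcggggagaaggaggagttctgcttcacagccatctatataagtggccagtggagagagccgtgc

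The windows of Pgk1 and Slc16a3 hold 2 cores each and that of Pfkl 1. A match is a string of letters, not a measured binding site.

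Isoenzyme choice was described as the share of each gene in the summed RPM of its family. Slc2a3 made up at least 93.6% of the Slc2a1 and Slc2a3 sum in every library, Eno1 at least 93.7% of the enolase sum and Ldha at least 96.8% of the lactate dehydrogenase sum. Pfkp led the phosphofructokinases in every library with 64.0% to 87.3%. Pfkm held 9.003% to 26.9% and Pfkl 2.46% to 14.8%. The hexokinases were mixed, with Hk2 at 40.2% to 69.6% of the sum of Hk1 and Hk2. The transporter share covers only this pair: Slc2a8, another glucose transporter, was at 9.70 to 40.1 RPM, above Slc2a1 in every library. The Eno1 share is uncertain because of the sequence its 3′ end has in common with other genes.

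Aldolase was a family in which the libraries of the kinds of line parted. Aldoc took 12.8% to 16.1% of the aldolase sum in the 4 GSC libraries and 8.13% to 11.6% in the 8 GSCLC libraries, with no overlap. The means were 14.0 ± 1.53% and 9.73 ± 0.961%. The log2 ratio of Aldoc to Aldoa differed by -0.59, with an exact two-sided permutation p of 0.0667 over all 15 splits of the 6 lines into 2 and 4, the smallest this design allows. Adjusted over the 13 ratios tested it was 0.552, so no ratio could pass.

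Among the pyruvate dehydrogenase kinases, Pdk1 and Pdk3 shared the sum, at 26.2% to 52.2% and 45.5% to 70.7%. Pdk2 took 3.96 ± 0.435% in GSC and 2.202 ± 0.699% in GSCLC lines, and the line shares did not overlap, with GSCLC_4 nearest at 3.19% beside 3.65% in GSC_2. Slc16a1 held 70.4% to 94.3% of the transporter sum, lowest in GSC_2, where Slc16a3 took 29.6% and 23.7%. Pfkfb3 ran from 25.0% to 75.2% of the PFKFB sum, and its lowest and highest shares were in GSCLC lines (GSCLC_1 replicate 2 and GSCLC_3 replicate 2).

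**Figure D5:**
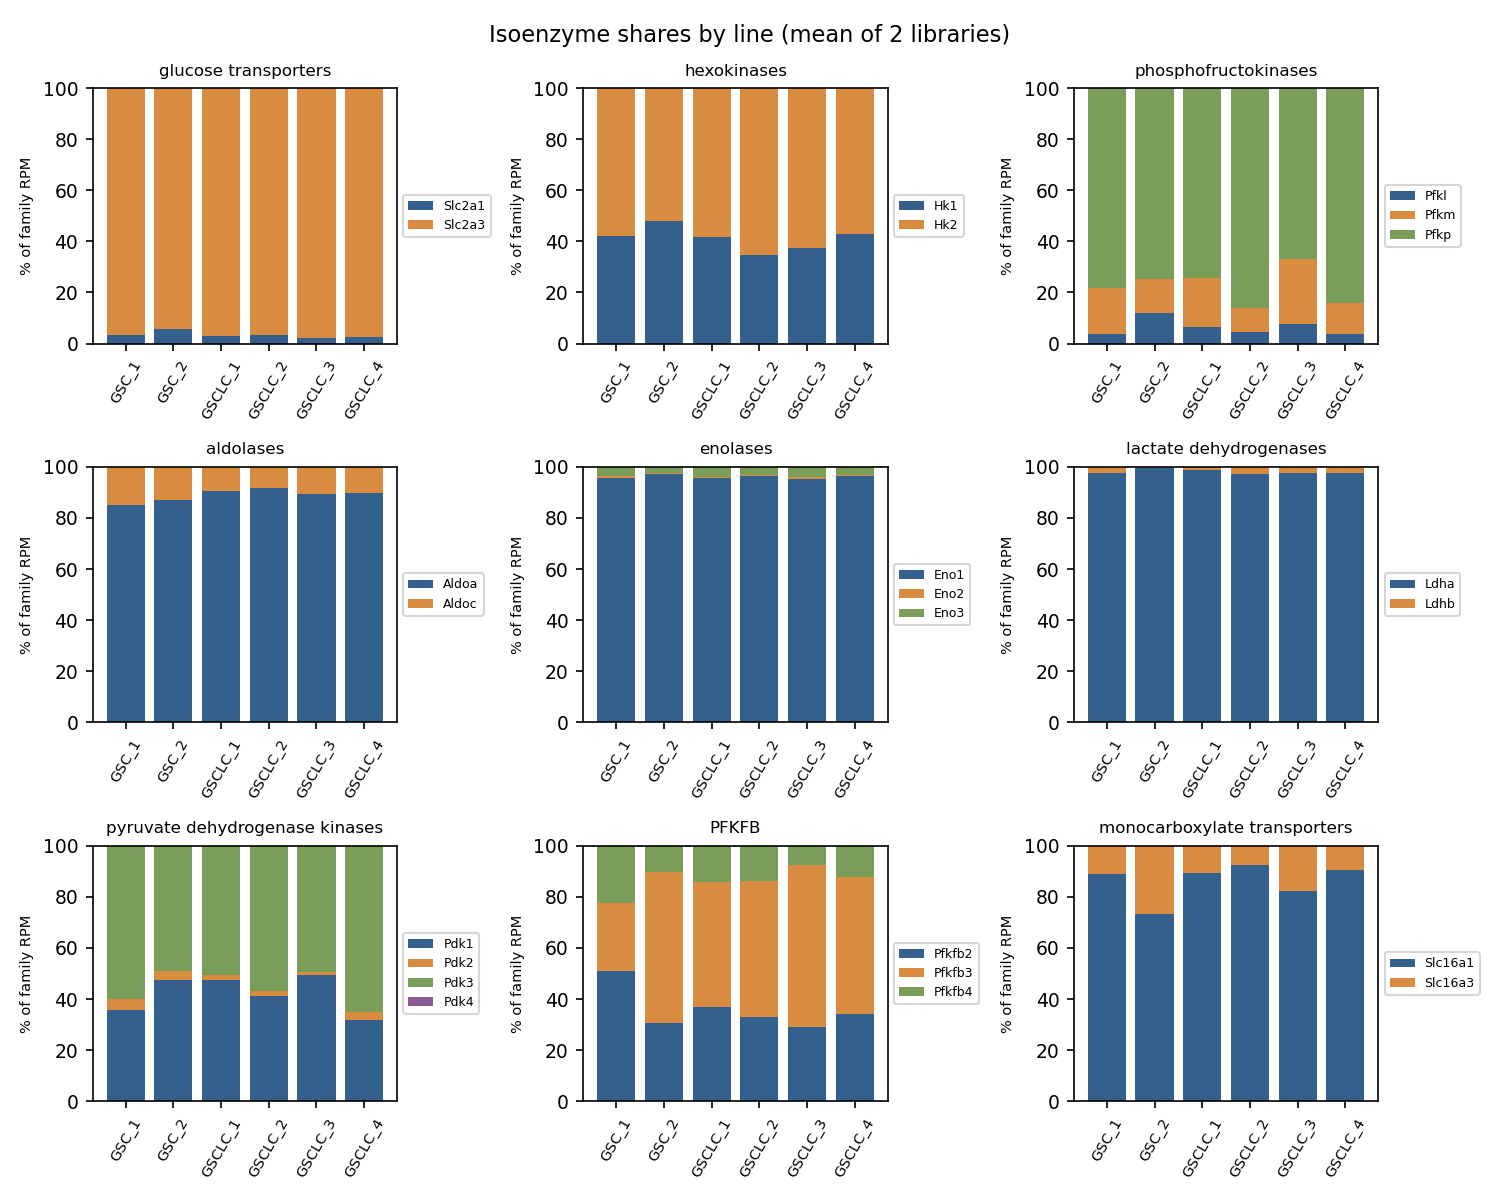
Share of each isoenzyme gene in the summed RPM of its family (percent, 0 to 100), by line, as the mean of 2 libraries. Slc2a3, Eno1 and Ldha fill nearly the whole bar in all 6 lines, and the Aldoc segment is larger in both GSC lines (15.1% and 12.9%) than in any GSCLC line (8.41% to 10.5%).

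Of 29 other isoenzymes in the table, 9 were tested and none passed between the kinds of line, beside 3.02% of all genes. The testis-specific forms known from spermatids were near 0: Gapdhs was at 0 in every library, which allows up to 0.99 RPM at the shallowest, and Pgk2 reached 0.856 RPM at most. Pklr, the pyruvate kinase gene of liver and red blood cells, was at 0 in all 12 libraries. Pdha2, a testis form of the pyruvate dehydrogenase subunit, was at 10.2 to 24.5 RPM and Ldhc, the testis lactate dehydrogenase, at 2.28 to 14.7 RPM.

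Around the pathway, 1 of 15 tested regulators passed between the kinds of line, beside 3.02% of all genes. Mlxipl, which encodes the glucose-sensing transcription factor ChREBP, was at 33.5 to 45.0 RPM in GSC and 11.5 to 24.03 RPM in GSCLC libraries, with no overlap. It fell by 1.297 ± 0.19 (limma, adjusted p = 0.00589). Txnip, a glucose-responsive brake on glucose uptake, had a log2 difference of -0.65 ± 0.23 (adjusted p = 0.17), and Myc one of 0.87 ± 0.33 (adjusted p = 0.201). Of 11 pentose phosphate genes 1 passed, beside the same 3.02% of all genes. This was Prps1, which makes the precursor of nucleotides from ribose phosphate. It was at 69.8 to 89.0 RPM in GSC and 102.8 to 147 RPM in GSCLC libraries and rose by 0.55 ± 0.13 (adjusted p = 0.0421). The share of all genes whose libraries do not overlap was not counted. Whether the calls of Mlxipl and Prps1 hold with a GSC line left out was not examined.

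None of 14 tested genes of mitochondrial pyruvate handling passed, beside 3.02% of all genes. Nearest was Brp44l, the older symbol of the mitochondrial pyruvate carrier subunit Mpc1, at 58.8 to 84.2 RPM in GSC and 19.1 to 51.1 RPM in GSCLC libraries. These ranges did not overlap, which was not counted over all genes. The log2 difference was -1.04 ± 0.28 (limma, adjusted p = 0.0744). Its partner Brp44, the older symbol of Mpc2, had a difference of -0.40 ± 0.14 (adjusted p = 0.154). None of 17 citric acid cycle genes, 7 genes of the NADH shuttles and 20 oxygen-sensing genes and HIF targets passed either, with smallest adjusted p-values of 0.163, 0.242 and 0.167. Their median log2 changes were 0.03, 0.42 and -0.051. At an unadjusted p under 0.05, 1 citric acid cycle gene was higher and 1 lower, 1 shuttle gene was higher, and 2 of the oxygen-sensing genes and HIF targets were lower, where 7.99% of all genes were higher and 8.93% lower.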

How the data were processed

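The authors deposited one table of RPM (reads scaled to a common library total) for 26219 genes in 12 libraries, and the values of a library sum to 999885 to 999962. Per the submitters' processing notes, the tools were cutadapt 1.3, TopHat 1.4.1 and Cufflinks 2.2.0 on build mm10 (GRCm38), with roles and parameters not given in the sources used here. The RPM were taken as log2(RPM + 1), which understates the change of low genes, and a gene was tested if it reached 5 RPM in 2 or more libraries, which left 11788. Count tests were not run, because the deposited RPM include fractional reads. Depth was read from the steps between low values, of which 99.7% to 99.8% were whole multiples within 0.1 of a step, among values above 0.01 RPM. Floors of 3 reads cover counting error only.

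GSCLC and GSC lines, and condition 2 and 1, were compared on the means of the 2 libraries of a line with limma 3.58.1 (R 4.3.3), with a mean-variance trend and two-sided tests. Single lines, the GSC lines and the differences among GSCLC lines were tested on single libraries, so those p-values measure the spread between culture replicates. P-values were adjusted by the Benjamini-Hochberg method over all tested genes. Isoenzyme log2 ratios had an exact permutation test over lines. The limma fits were tested on simulated data. The labels call the replicates biological replicates of the culture, and the independence of the lines was not tested. Alternatives were other pseudocounts, filters, scalings and fits, and each library or line left out.

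The members and all lists were chosen with earlier results of these data known. Every member is named. Those past the threshold in a fit, and the main gene of a family, have library values or ranges, in part for some lines only. Of other pathway lists, the genes past the threshold between the kinds of line are named, with some others. Most list genes that passed only in single lines or among the GSCLC lines are not named. Some genes with wide swings between replicates, and some list genes, were named after their values were seen. Positions and promoters come from RefSeq (GRCm38.p6) matched by symbol, for 33 and 32 of the 33 members.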

Additional observations from a re-analysis of the deposited data

Results flagged for a closer look

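The mean of the phosphoglycerate mutase gene Pgam1 in GSCLC_4, 725 RPM, stood apart from the other GSCLC lines, which lay at 617, 608 and 625 RPM. Its gap to the nearest line, relative to the range of the 4 lines, was over the 95% limit of Dixon's test for 4 values. Its libraries were at 737 and 712 RPM. The means of 30 genes were looked at in this way, and chance flags about 1 in 20 groups.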

How the results depend on the processing

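Of the members, only Aldoc passed between the kinds of line, in 25 of 29 alternatives, with log2 changes of -1.05 to -0.68 and adjusted p-values of 0.00436 to 0.316 in limma. It missed the threshold without GSC_1, without GSC_2 and with replicate 1 or replicate 2 alone. The count of all genes past the threshold, 356, became 142 with no filter, 212 with a filter of 20 RPM, and 645 on single libraries with duplicateCorrelation by line. It became 114 and 178 with replicate 1 and replicate 2 alone, and 41, 13, 211 and 209 without the lines GSC_1, GSC_2, GSCLC_1 and GSCLC_2. Leaving out one library at a time gave 199 (without GSCLC_4 replicate 2) to 403. For the conditions, the count of 0 became 1 with replicate 2 alone and 1, 11 and 1 without GSCLC_1, GSCLC_2 and GSCLC_3, and stayed at 0 to 0 with one library left out, with no member among them. Without GSC_1 the log2 difference of Pfkfb3 turned from 0.84 to -0.025. With replicate 2 alone the log2 ratio of Pfkm to Pfkl differed by -0.16 in place of 0.41. The causes were not tested.

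Replicate numbers did not pair the libraries: deviations from line means correlated at -0.12 to 0.11 over 15 pairs of lines, 2 of them over 0.1. With a replicate block 592 genes passed between the kinds of line (0 between conditions), and 828, 1394, 1715, 1927, 7 and 1130 for GSCLC_1 to GSCLC_4, the GSC lines and the differences among GSCLC lines. With 2 GSC lines, small differences were not detectable in Ldhb, Eno2, Pdk4 and Pfkfb4, whose levels were low. The same holds for Eno1 and Gapdh, which have shared ends.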
